A study of Arabidopsis thaliana with 12 samples.

Results

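Aliphatic glucosinolate synthesis is described here through 10 genes, chosen by gene ID: the regulators MYB28 and MYB29, the chain elongation genes BCAT4, MAM1 and MAM3, the core enzymes CYP79F1, CYP79F2 and CYP83A1, and the side chain genes FMOGS-OX1 and AOP2. Of these, 9 are among the 27655 genes of the deposited table and AOP2 was not analysed here. Expression had been measured by RNA sequencing of total RNA from Arabidopsis thaliana seedlings harvested at 3 weeks. The plants had been kept at 22 °C in days of 16 h light and 8 h dark. There were 4 groups with 3 libraries each, namely wild type Col, libraries labelled h3.3ko;HTR5 (called HTR5), libraries labelled h3.3ko;HTR5 K4A (called K4A), and libraries labelled sdg2. By their labels, HTR5 and K4A share the knockout of histone H3.3 and carry the H3.3 gene HTR5, which in K4A has alanine in place of lysine 4, while sdg2 refers to a methyltransferase gene for that lysine. The labels do not give the promoter of the transgene, the number of transgenic lines, the plants per library or the hour of harvest, and nothing in them says that replicates came from separate cultures, so p-values measure the spread between these libraries.

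Glucosinolates are sulfur-rich defence compounds of the cabbage order. Aliphatic ones are made from methionine: its side chain is first lengthened in a cycle that runs largely in the chloroplast, the lengthened amino acid is turned into the glucosinolate core by cytochrome P450s, a C-S lyase, a glucosyltransferase and a sulfotransferase, and the side chain is then oxidised or otherwise modified. MYB28 and MYB29 are activators of most of these steps and work together with MYC factors, and an indolic branch with its own MYB factors starts from tryptophan. When tissue is damaged, myrosinases split the stored compounds into toxic products. The accession Col is known to lack a working AOP2 enzyme, and the RefSeq annotation lists AOP2 as a transcribed pseudogene.

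Each value is in TPM, a transcript level that is here per length of the gene span with introns and sums to 1000000 in each library. The depth, recovered from the values, was 13718753 to 14536028 reads per library in Col and HTR5 and 20725060 to 30364749 in K4A and sdg2. Of all TPM, 7.98 to 11.32% came from the top 10 genes in Col and HTR5 libraries and 4.66 to 5.64% in K4A and sdg2 libraries, and chloroplast-encoded genes made up 0.156 to 0.431% against 0.0292 to 0.0446%. Without HTR5 replicate 2 the upper end of the former was 0.213%. K4A and its control HTR5, and sdg2 and its control Col, therefore differ in these measures as well as in genotype, and the 2 cannot be told apart there, whereas the comparisons of HTR5 with Col and of K4A with sdg2 each stay within a set. HTR5 replicate 2 stood apart from the other HTR5 libraries, with a chi-square of 19.3 per degree of freedom on reads against replicate 1, where replicates 1 and 3 gave 2.24. As a check of the labels, HTR8 was low in HTR5 (6.49 TPM) and K4A (4.80 TPM) against 243.5 TPM in Col, but HTR4 kept 169.6 and 77.9 TPM, and these genes and HTR5 are close copies. SDG2 stood at 161.1 TPM in the libraries labelled sdg2 against 21.9 TPM in Col, which goes against a loss of its transcript, so each direction below is that of the libraries labelled sdg2. All 7 green leaf markers were high in every group, while of 7 root markers PYK10 alone passed 10 TPM in any group mean, and EXPA7, LRX1 and CASP1 were at 0 to 0.0536 TPM in the group means.

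The sequences around the gene starts of 3 genes, CYP79F1, CYP79F2 and CYP83A1, are shown because they share a sequence element. They run from 250 bases before the annotated gene start to 50 bases into the gene, 5′ to 3′ on the gene's strand, from RefSeq TAIR10.1. Capitals mark ACCTACC on either strand (AC element I, a site type known for R2R3 MYB factors) and CACGTG (the G-box, a site type known for MYC factors).
CYP79F1 (chr1:5608432-5608731, + strand): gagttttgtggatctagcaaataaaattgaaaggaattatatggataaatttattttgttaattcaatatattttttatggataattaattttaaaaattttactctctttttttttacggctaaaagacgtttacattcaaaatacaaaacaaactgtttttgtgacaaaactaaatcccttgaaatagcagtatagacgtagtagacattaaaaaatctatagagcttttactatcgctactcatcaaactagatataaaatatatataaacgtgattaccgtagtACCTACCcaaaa
CYP79F2 (chr1:5604794-5605093, + strand): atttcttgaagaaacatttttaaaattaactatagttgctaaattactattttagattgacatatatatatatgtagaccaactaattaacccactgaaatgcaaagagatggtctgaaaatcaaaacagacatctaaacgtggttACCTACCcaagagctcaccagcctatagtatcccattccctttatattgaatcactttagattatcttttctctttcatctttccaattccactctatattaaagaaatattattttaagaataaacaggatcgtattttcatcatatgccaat
CYP83A1 (chr4:7992380-7992679, - strand): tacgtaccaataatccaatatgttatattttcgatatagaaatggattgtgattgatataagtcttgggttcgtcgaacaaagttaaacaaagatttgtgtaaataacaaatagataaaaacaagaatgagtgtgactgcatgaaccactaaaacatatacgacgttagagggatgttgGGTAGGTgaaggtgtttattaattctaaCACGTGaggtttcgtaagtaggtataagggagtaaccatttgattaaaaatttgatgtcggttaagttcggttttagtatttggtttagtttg
ACCTACC lay 104 bases before the start of CYP79F2, 71 bases before that of CYP83A1 (on the other strand) and at base 39 of the CYP79F1 gene. It occurred in 3 of the 9 genes, against 1.38% of 27443 promoters of protein-coding genes of the same length. CYP79F1 and CYP79F2 lie 1183 bases apart and their coding sequences are 90.7% identical, so their matches may not be independent. Whether the element is enriched among the 9 genes was not tested. CACGTG occurred in 1 of the 9, 43 bases before the start of CYP83A1, against 7.68% of all promoters. ACCAACC (AC element II) and AAATATCT (the evening element) occurred in 0 of the 9, against 3.29% and 5.65%. These searches covered both strands, no 2 of the matches overlap, and a match is a string of letters and not a shown binding site.

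Aliphatic glucosinolate genes were lower in both mutant groups than in their controls, from the regulators to the side chain enzyme. In K4A against HTR5 all 9 genes were called lower (limma, Benjamini-Hochberg adjusted p under 0.05), where 26.1% of the 20881 tested genes were called lower, 42.5% higher and 68.6% in either direction. In sdg2 against Col all 9 were again called lower, where 20.7% of tested genes were called lower, 52.4% higher and 73.2% in either direction. Median-of-ratios scaling evened out these splits over all genes, to 7394 higher and 7190 lower in the first comparison (8868 and 5451 without it) and to 7287 and 7155 in the second (10951 and 4327 without it), and still called the 9 genes lower. The median log2 fold change of the 9 was -1.59 for K4A over HTR5 and -1.68 for sdg2 over Col, on the log2(TPM + 1) scale, against 0.14 and 0.31 for all tested genes. Relative to those medians the shifts were -1.73 and -1.99. All 9 passed the filter on low values, 7 of them at a TPM of at least 10 in every group mean. Summed over the 9 genes, TPM lay between 2023 and 2157 in Col libraries, between 1766 and 1872 in HTR5 libraries, between 529.6 and 548.5 in K4A libraries and between 600.2 and 635.3 in sdg2 libraries, with no overlap between mutants and controls.

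**Figure D1:**
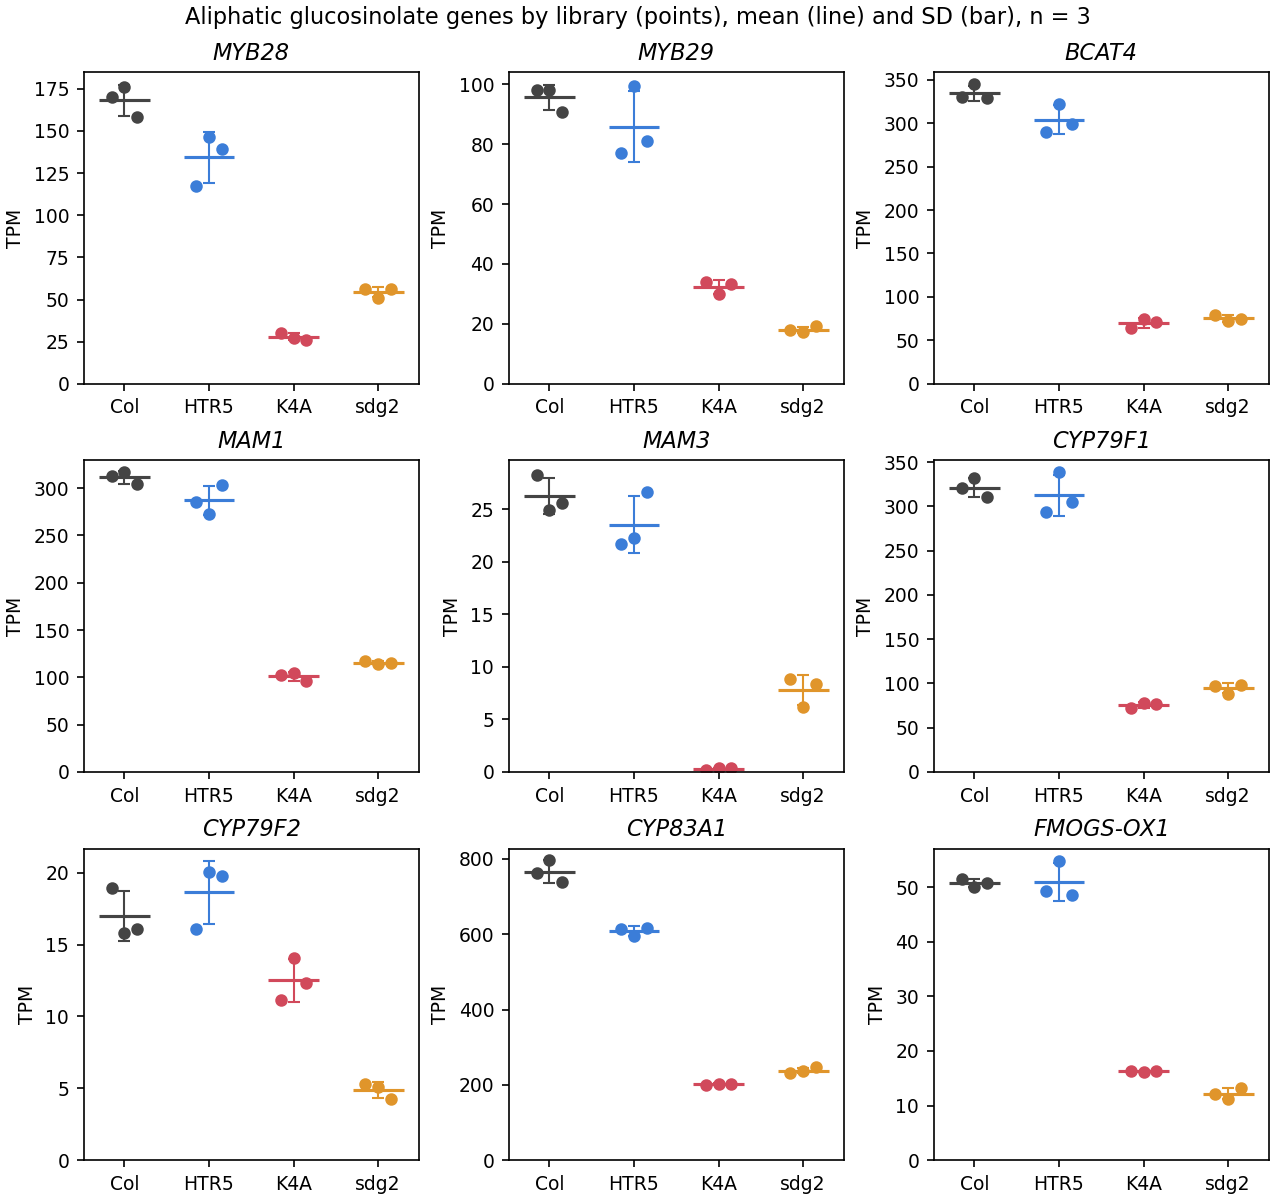
TPM of the 9 genes in each of the 12 libraries; points are libraries, horizontal lines group means and bars SD (n = 3). K4A and sdg2 points lie below all Col and HTR5 points for each gene, and K4A lies near 0 for MAM3 alone. How many of all genes separate in this way was not counted.

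MYB28 (AT5G61420, chromosome 5, 24689069 to 24691187), the main activator of the pathway, stood at 170.0, 176.2 and 158.3 TPM in the Col libraries (replicates 1, 2 and 3, an order kept below) and at 117.2, 146.6 and 139.0 TPM in HTR5. It stood at 30.1, 27.1 and 26.2 TPM in K4A and at 56.3, 50.8 and 56.1 TPM in sdg2. The 4 groups did not overlap, and K4A was the lowest of them. MYB28 fell by 2.23 ± 0.084 (log2, SE) in K4A against HTR5, with a limma adjusted p of 2.85e-12. Against Col, sdg2 had it lower (it fell by 1.61 ± 0.084), with a limma adjusted p of 1.23e-10.

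MYB29 (AT5G07690, chromosome 5, 2446669 to 2448584), the second activator, stood at 98.0, 98.1 and 90.6 TPM in Col and at 77.2, 99.3 and 81.2 TPM in HTR5. It stood at 34.2, 29.8 and 33.4 TPM in K4A and at 17.9, 17.2 and 19.2 TPM in sdg2. Here the order of the mutants was turned, with sdg2 below K4A and no overlap between them. The log2 fold change was -1.37 ± 0.090 (SE) for K4A over HTR5 and -2.34 ± 0.090 for sdg2 over Col, with limma adjusted p-values of 1.92e-09 and 2.9e-12.

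BCAT4 (AT3G19710, chromosome 3, 6846969 to 6849582) removes the amino group of methionine at the entry to chain elongation. It stood at 329.7, 344.5 and 328.8 TPM in Col, 289.8, 322.4 and 299.0 TPM in HTR5, 64.0, 74.6 and 70.9 TPM in K4A and 79.8, 72.1 and 74.2 TPM in sdg2. Both mutant groups lay far below both controls and overlapped with each other. Its ratio of mean TPM was 4.35-fold lower in K4A than in HTR5 and 4.44-fold lower in sdg2 than in Col, with limma adjusted p-values of 3.8e-13 and 2.63e-13. The BCAT4 span overlaps AT3G19700 on the opposite strand by 307 bases, and the use of strand is not given in the sources used here, but that gene did not exceed 0.0941 TPM in any library.

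MAM1 (AT5G23010, chromosome 5, 7703041 to 7706973), which condenses the deaminated methionine with acetyl-CoA and makes short chains, stood at 312.8, 317.4 and 304.1 TPM in Col and 285.2, 273.0 and 303.5 TPM in HTR5. In K4A it stood at 102.6, 105.0 and 96.0 TPM and in sdg2 at 117.0, 113.9 and 115.0 TPM. It was low in both mutant groups, 2.84-fold lower in K4A than in HTR5 and 2.70-fold lower in sdg2 than in Col (ratios of mean TPM), with limma adjusted p-values of 2.51e-12 and 3.85e-12.

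MAM3 (AT5G23020, chromosome 5, 7718118 to 7721866; IMS2 in RefSeq) encodes the related synthase that also makes long chains, and it lies 11144 bases from MAM1. It stood at 28.3, 25.0 and 25.6 TPM in Col, 21.7, 22.3 and 26.6 TPM in HTR5 and 8.83, 6.15 and 8.42 TPM in sdg2. In K4A it stood at 0.175, 0.379 and 0.363 TPM, which corresponds to 6, 16 and 12 reads. Of the 9 genes it was the one nearly lost in K4A, at a mean TPM 77.0-fold lower than in HTR5 and 25.5-fold lower than in sdg2. On the log2(TPM + 1) scale, which understates the change of so low a value, its log2 fold change was -4.23 ± 0.135 (SE) for K4A over HTR5 and -1.64 ± 0.135 for sdg2 over Col, with limma adjusted p-values of 4.09e-13 and 2.64e-08. With a pseudocount of 0.1 in place of 1 the log2 fold change in K4A was -5.90. The coding sequences of MAM1 and MAM3 are 78.9% identical with a longest shared run of 30 bases, so reads shared between them could have been split in a way that is not known.

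The genes around the pair were looked at after the MAM3 values had been seen. MYB37, the gene next to MAM1, had a mean of 0.675 TPM in HTR5 and 2.37 TPM in K4A and was called higher (limma adjusted p of 0.000991). Beyond it, scpl47 was called lower, with means of 1.74 and 0.347 TPM (0.00016), where Col had 2.78 TPM and sdg2 2.003 TPM. On the far side of MAM3, AT5G23040 (CDF1 in RefSeq) had means of 121.7 and 92.8 TPM and was called lower (0.00011). TET12, between these, stood at 0.0935 and 0 TPM and was too low to test. In sdg2 against Col MYB37 was likewise called higher and CDF1 lower (limma adjusted p of 0.00031 and 0.00267). Neither was called in K4A against sdg2 (0.473 and 0.609), and MYB37 was low in every group, at means of 0.361 to 2.37 TPM. The tested neighbours thus moved in both directions in K4A against HTR5, where 68.6% of all tested genes were called. Like MAM3, scpl47 was lower in K4A than in sdg2 (log2 fold change of -1.135, limma adjusted p of 9.51e-05), though its level was low in every group. In sdg2 against Col scpl47 was not called (limma adjusted p of 0.0971).

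CYP79F1 (AT1G16410, chromosome 1, 5608682 to 5612064) turns methionine derivatives of all chain lengths into aldoximes. It stood at 320.8, 332.3 and 310.5 TPM in Col, 294.0, 338.6 and 304.4 TPM in HTR5, 72.2, 78.1 and 76.3 TPM in K4A and 96.9, 88.0 and 98.3 TPM in sdg2. Col and HTR5 overlapped and both mutants lay below them. It was 4.14-fold lower in K4A than in HTR5 and 3.40-fold lower in sdg2 than in Col (ratios of mean TPM), with limma adjusted p-values of 4.73e-13 and 2.07e-12.

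CYP79F2 (AT1G16400, chromosome 1, 5605044 to 5607498) lies 1183 bases from CYP79F1 and takes long-chain substrates. It stood at 19.0, 15.8 and 16.1 TPM in Col, 16.1, 20.1 and 19.8 TPM in HTR5, 11.1, 14.1 and 12.3 TPM in K4A and 5.27, 5.08 and 4.23 TPM in sdg2. Its fall in K4A was the smallest of the 9 genes, at -0.54 ± 0.122 (log2, SE) with a limma adjusted p of 0.00108, while in sdg2 against Col it was -1.62 ± 0.122 with 1.02e-08. The 2 coding sequences are 90.7% identical with a shared run of 100 bases, so part of the CYP79F2 reads may be those of CYP79F1, and its values are uncertain to that extent.

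CYP83A1 (AT4G13770, chromosome 4, 7990429 to 7992429), which oxidises the aldoximes, had the highest TPM of the 9 genes in each group. It stood at 762.5, 797.7 and 738.1 TPM in Col, 615.2, 594.7 and 616.1 TPM in HTR5, 199.0, 203.3 and 203.5 TPM in K4A and 232.0, 235.8 and 246.7 TPM in sdg2. The 4 groups did not overlap. It was 3.01-fold lower in K4A than in HTR5 and 3.22-fold lower in sdg2 than in Col (ratios of mean TPM), with limma adjusted p-values of 4.41e-13 and 1.93e-13.

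FMOGS-OX1 (AT1G65860, chromosome 1, 24498954 to 24502776) oxidises the sulfur of the finished side chain. It stood at 51.5, 49.97 and 50.7 TPM in Col, 49.3, 54.9 and 48.6 TPM in HTR5, 16.3, 16.1 and 16.4 TPM in K4A and 12.2, 11.2 and 13.2 TPM in sdg2. The controls overlapped and the mutants lay below them, sdg2 lowest. Its log2 fold change was -1.59 ± 0.077 (SE) for K4A over HTR5 and -1.97 ± 0.077 for sdg2 over Col, with limma adjusted p-values of 5.68e-11 and 3.8e-12.

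**Figure D2:**
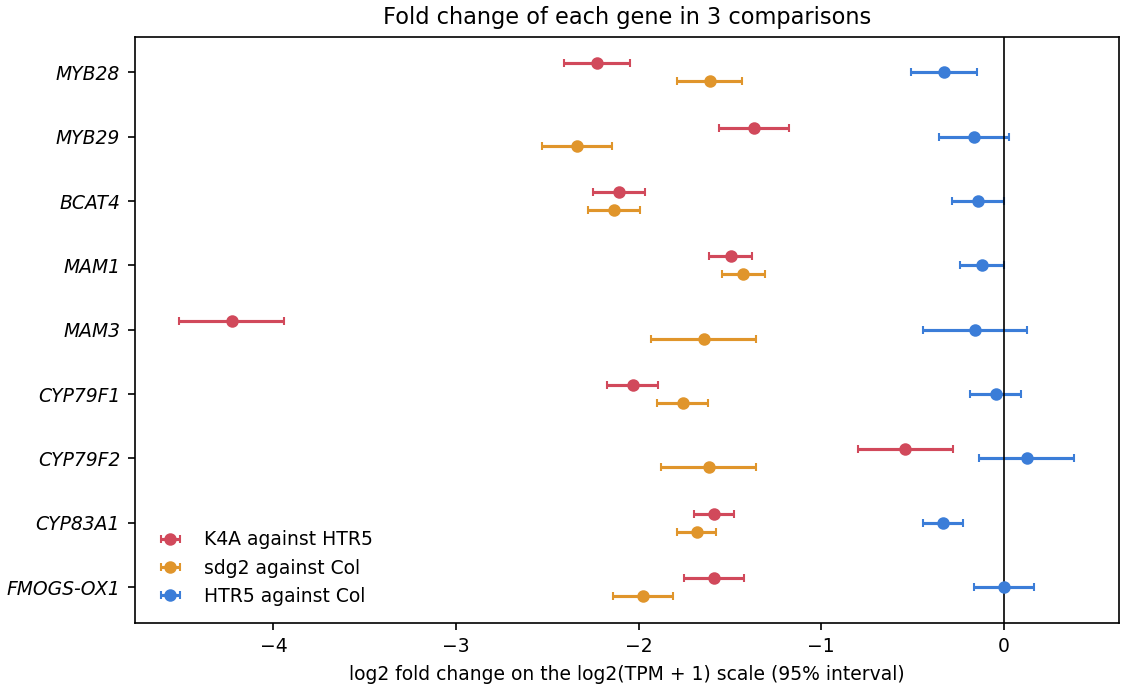
Log2 fold change of each gene on the log2(TPM + 1) scale with its 95% interval, for K4A over HTR5, sdg2 over Col, and HTR5 over Col; the latter pair share the Col libraries, the first and the last the HTR5 libraries. All 9 genes lie left of 0 in the first 2 comparisons, from -4.23 to -0.54 and from -2.34 to -1.43, and within 0.33 of 0 in HTR5 against Col.

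HTR5 against Col compares the labelled knockout carrying HTR5 with wild type, and here most of these genes were not called. Of the 9, 2 were called lower and 0 higher, where 3.78% of tested genes were called lower, 5.50% higher and 9.28% in either direction (1148 higher and 790 lower, or 852 and 1323 with median-of-ratios scaling). CYP83A1 fell by 0.33 ± 0.051 (log2, SE), with a limma adjusted p of 0.000566, and MYB28 fell by 0.33 ± 0.084, with 0.024. The MYB28 call was lost without Col replicate 1 (limma adjusted p of 0.0744), Col replicate 2 (0.103) or HTR5 replicate 1 (0.063). Median-of-ratios scaling called MYB29 and BCAT4 lower as well, at -0.26 and -0.24. Without that scaling the other 7 genes lay between -0.16 and 0.13. With K4A set against Col in place of HTR5, all 9 genes were again called lower, from -4.39 for MAM3 to -0.41 for CYP79F2.

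The 2 mutant groups, compared directly and without a control, differed in 8 of the 9 genes and in both directions. K4A was called lower than sdg2 for 5 genes, where 29.8% of tested genes were, and higher for 3, where 20.4% were, and 50.2% of tested genes were called in either direction (4261 higher and 6228 lower, or 5515 and 5216 with median-of-ratios scaling). MYB28 was lower in K4A by -0.95 ± 0.084 (log2, SE) and MAM3 by -2.74 ± 0.135, with limma adjusted p-values of 2.08e-07 and 2.43e-10. CYP79F1 (-0.32), CYP83A1 (-0.24) and MAM1 (-0.19) were lower by less, with limma adjusted p-values of 0.000873, 0.00121 and 0.0116. The MAM1 and CYP83A1 calls were lost under median-of-ratios scaling (limma adjusted p of 0.306 and 0.102), and that of MAM1 also without K4A replicate 3 (0.0608). MYB29 (0.81 ± 0.090), CYP79F2 (1.20 ± 0.122) and FMOGS-OX1 (0.39 ± 0.077) were higher in K4A than in sdg2, with limma adjusted p-values of 2.28e-06, 8.62e-07 and 0.000617. BCAT4 was not called, with a difference of -0.11 and a 95% interval from -0.25 to 0.03. The regulators thus parted in opposite directions, and so did MAM3 and CYP79F2, the genes linked to long chains.

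**Figure D3:**
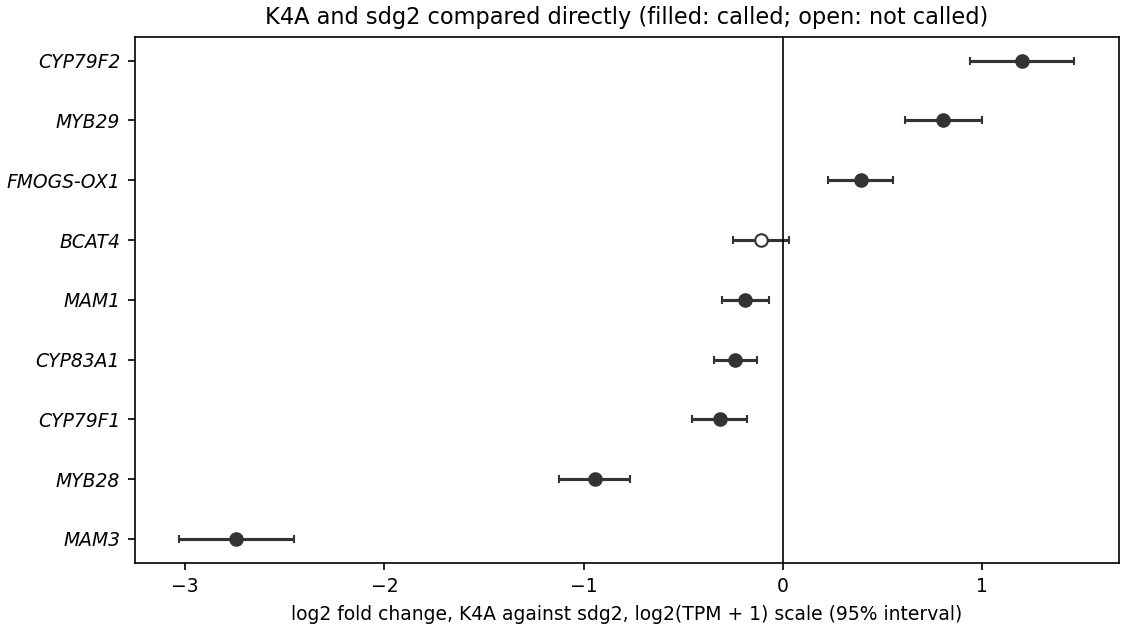
Log2 fold change of K4A against sdg2 for each gene with its 95% interval on the log2(TPM + 1) scale, filled where called. MAM3 and MYB28 lie at -2.74 and -0.95, MYB29 and CYP79F2 at 0.81 and 1.20, and BCAT4 is not called.

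The difference of effects, K4A against HTR5 minus sdg2 against Col, gave each mutant its own control. It was called for 6 of the 9 genes, 3 in each direction, where 40.7% of tested genes were called, 14.1% higher and 26.6% lower (2943 and 5556 genes, or 4410 and 3587 with median-of-ratios scaling). The fall was deeper in K4A for MAM3 (-2.59 ± 0.190, SE), MYB28 (-0.62 ± 0.119) and CYP79F1 (-0.28 ± 0.093), with limma adjusted p-values of 6.92e-08, 0.000824 and 0.028. It was deeper in sdg2 for CYP79F2 (1.08 ± 0.173), MYB29 (0.97 ± 0.127) and FMOGS-OX1 (0.39 ± 0.110), with 0.000171, 2.61e-05 and 0.0112. The CYP79F1 call was lost under median-of-ratios scaling (limma adjusted p of 0.334) and without any of Col replicate 1 (0.0529), Col replicate 3 (0.0717), K4A replicate 1 (0.0721), sdg2 replicate 1 (0.0679) or sdg2 replicate 3 (0.0754). For BCAT4, MAM1 and CYP83A1 the 95% intervals ran from -0.17 to 0.23, from -0.24 to 0.10 and from -0.06 to 0.25, and median-of-ratios scaling added a call for CYP83A1, at 0.28 with a limma adjusted p of 0.0424.

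Across the 12 libraries, as a description, the log2 values of BCAT4, MAM1, CYP79F1 and CYP83A1 ran closely together, with Pearson r from 0.989 to 0.995 between pairs. MYB29 ran most closely with FMOGS-OX1 (r of 0.986), and MYB28 with CYP79F1 (0.969). The lowest value was 0.31, between MAM3 and CYP79F2. These r values rest on libraries that fall into mutants and controls and share depth and library set. Outside the lists, the 5 genes with the highest r to the mean standardised profile of the 9 genes (0.9945 to 0.9965 over 12 libraries) were AT1G62480, NF-YB2, CA2, SAUR24 and PSBQ-2. AT1G62480 had group means of 957.1 ± 27.0 TPM (SD, n = 3) for Col, 954.3 ± 24.9 for HTR5, 136.2 ± 14.6 for K4A and 147.0 ± 2.71 for sdg2. CA2, a carbonic anhydrase, and PSBQ-2, a photosystem II subunit, belong to leaf photosynthesis.

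The other listed genes of the aliphatic pathway were lower as well, though less evenly. Of 23 genes 21 were tested: in K4A against HTR5 14 were called lower and 5 higher, at a median of -0.55 (log2), and in sdg2 against Col 15 lower and 5 higher, with -1.01. Under median-of-ratios scaling these counts were 16 lower and 4 higher, and 16 lower and 1 higher. Among all tested genes, without that scaling, 26.1% were called lower and 42.5% higher in K4A against HTR5, at a median of 0.14. The shares in sdg2 against Col were 20.7% lower and 52.4% higher, at a median of 0.31. AOP3 was too low to test, and GSTF11 was listed at 0 in every library. The GSTF11 span overlaps a measured gene on the opposite strand, so its 0 need not mean that it was not expressed. MYB76, the third activator of this branch, stood at 3.45 to 5.92 TPM in Col and HTR5 libraries, 0.299 to 1.08 in K4A and 1.07 to 1.44 in sdg2. Its log2 fold changes were -1.63 and -1.36, with limma adjusted p-values of 2.4e-06 and 1.47e-05.

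For the difference of effects 9 of the 21 were called higher and 0 lower (14 and 0 under median-of-ratios scaling), where 14.1% of tested genes were called higher and 26.6% lower. Among the listed genes with values here, the spans of IMD1, UGT74C1, FMOGS-OX5, GTR1, GTR2, SLIM1, PYK10, EXPA7 and CASP1, and of some clock and leaf marker genes within the sums below, overlap a measured gene, in most cases on the opposite strand, so their values are uncertain to that extent.

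Chain elongation fell in full, with 6 of 6 further genes called lower in both comparisons, where 26.1% and 20.7% of tested genes were. The 6 genes ran from -1.36 for BAT5, the chloroplast transporter of the elongated keto acids, to -0.37 for IIL1, a subunit of the isomerase, in K4A. In sdg2 they ran from -1.74, again for BAT5, to -0.33 for IIL1. IMD1, the dehydrogenase of the cycle, was at 274.5 ± 9.41 TPM in HTR5 and 168.9 ± 4.87 in K4A, and at 323.7 ± 11.1 in Col and 118.5 ± 3.66 in sdg2 (SD, n = 3).

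Of 7 core enzymes tested, 3 were called lower and 2 higher in K4A against HTR5, and 4 lower and 2 higher in sdg2 against Col. With median-of-ratios scaling 5 were lower and 1 higher, and 5 lower and 0 higher. Without it, 26.1% of all tested genes were called lower and 42.5% higher in K4A against HTR5. The shares in sdg2 against Col were 20.7% and 52.4%. UGT74C1, a glucosyltransferase linked to the aliphatic branch, was 3.05-fold lower in K4A than in HTR5 and 2.74-fold lower in sdg2 than in Col, and GSTU20 2.35-fold and 2.27-fold lower (ratios of mean TPM). UGT74B1, the glucosyltransferase that also serves other glucosinolates, was not called, at -0.17 and 0.09, but was called lower in both under median-of-ratios scaling, at -0.32 and -0.25. GGP1, a peptidase of both branches, was called higher, at 0.56 and 0.41 (0.41 and 0.065 under median-of-ratios scaling). SUR1, the C-S lyase of both branches, was called higher in both, at 0.13 and 0.28, but its sign turned under median-of-ratios scaling, to -0.03 and -0.06. Both kinases that make the sulfate donor, APK1 and APK2, were called lower, at log2 fold changes of -0.90 and -0.75 for K4A and of -1.13 and -1.06 for sdg2.

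Side chain genes went both ways. FMOGS-OX3 was 3.97-fold lower in K4A than in HTR5 and 4.49-fold lower in sdg2 than in Col, and FMOGS-OX2 was 1.51-fold and 2.14-fold lower (ratios of mean TPM). FMOGS-OX4 was called higher, at 0.45 and 0.44 (log2), the latter 0.12 under median-of-ratios scaling. FMOGS-OX5 was called higher, at 0.40 and 0.19, but for sdg2 its sign turned under median-of-ratios scaling, to -0.14. GSL-OH, which hydroxylates alkenyl glucosinolates of the kind that AOP2 makes, was called higher in both comparisons. It stood at 370.8, 395.6 and 375.4 TPM in HTR5 and 1361, 1351 and 1476 TPM in K4A, and at 369.1, 354.5 and 338.8 TPM in Col and 513.5, 493.9 and 516.6 TPM in sdg2. Its rise was 1.87 ± 0.056 (log2, SE) over HTR5 in K4A and 0.52 ± 0.056 over Col in sdg2, with limma adjusted p-values of 2.16e-13 and 6.64e-07, and the difference of effects was 1.35 with 7.1e-09. Under median-of-ratios scaling the rises were 1.72 and 0.18, the latter with a limma adjusted p of 0.0191.

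In the indolic branch, by contrast, 6 of 8 genes were called higher and 2 lower in each comparison. Among all tested genes the shares were 42.5% higher and 26.1% lower with K4A, and 52.4% and 20.7% with sdg2. The indolic median log2 fold changes were 1.70 for K4A over HTR5 and 2.47 for sdg2 over Col. Those of all tested genes were 0.14 and 0.31. CYP79B2, the counterpart of CYP79F1 for tryptophan, rose from 45.6 ± 5.93 TPM in HTR5 to 261.7 ± 6.71 TPM in K4A, and from 44.6 ± 1.74 TPM in Col to 415.6 ± 4.49 TPM in sdg2 (SD, n = 3). MYB51, an activator of this branch, rose from 12.7 ± 2.09 to 70.7 ± 3.04 TPM and from 11.7 ± 0.729 to 129.9 ± 3.96 TPM. MYB34, another activator, and CYP79B3, a close relative of CYP79B2, were called lower in each, at -0.47 and -0.52 for K4A over HTR5 and at -1.15 and -0.52 for sdg2 over Col. CYP79F1 and CYP79B2 thus exchanged ranks, with 312.3 against 45.6 TPM in HTR5 and 75.5 against 261.7 TPM in K4A.

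**Figure D4:**
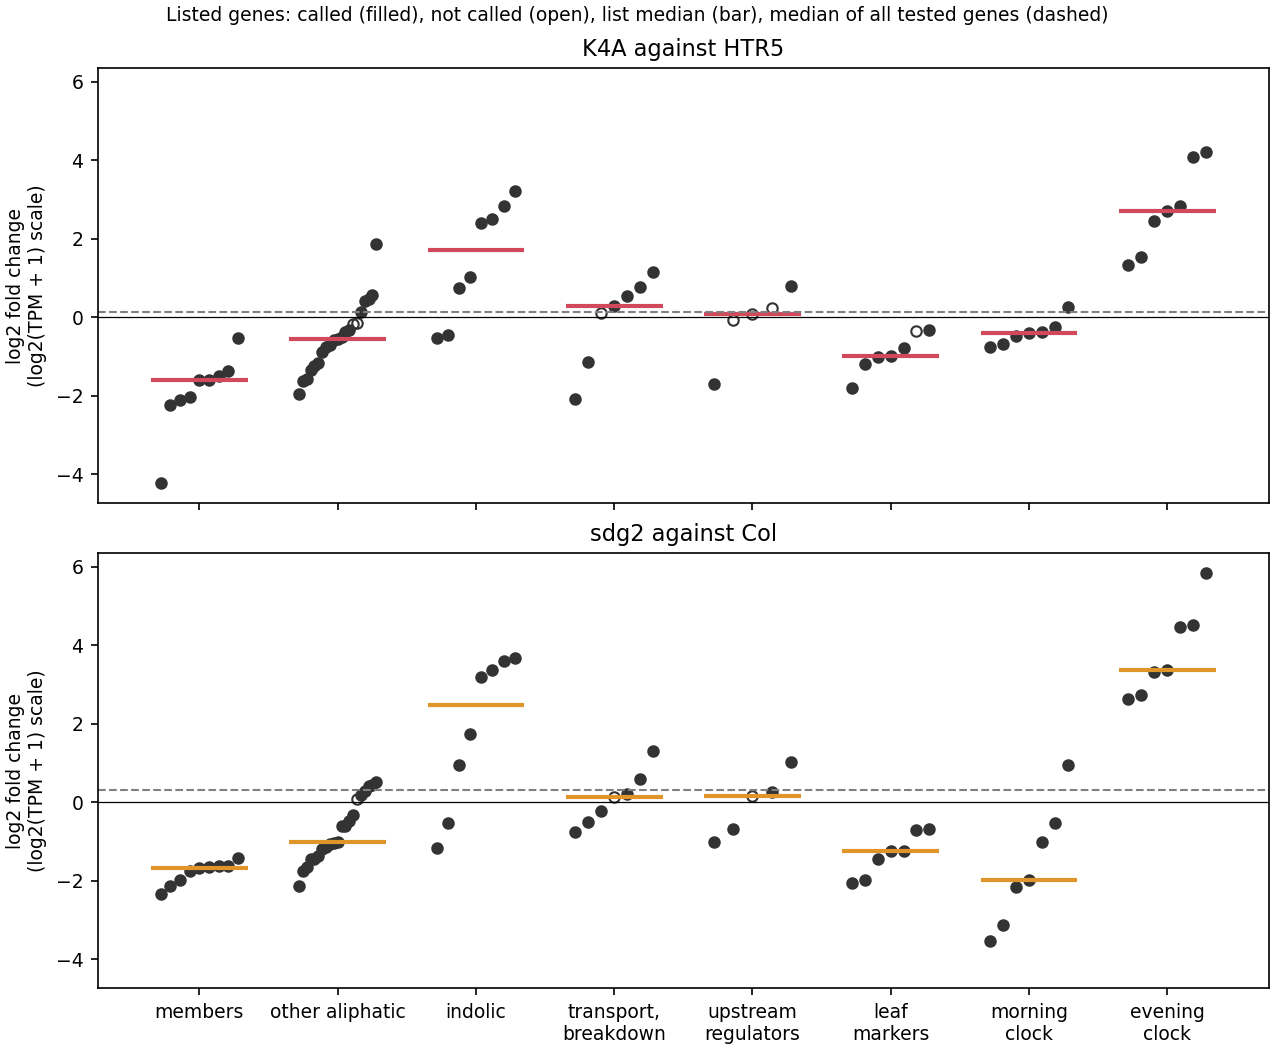
Log2 fold change (log2(TPM + 1) scale) of the listed genes for K4A over HTR5 (top) and sdg2 over Col (bottom), with list medians as bars and the median of all tested genes dashed. The 9 aliphatic genes (members) lie below 0 in both, while 6 of 8 indolic genes and all 7 evening clock genes lie above 0.

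Of 7 breakdown and transport genes, K4A had 4 called higher and 2 lower, and sdg2 3 higher and 3 lower. Under median-of-ratios scaling the counts were 3 higher and 2 lower, and 2 higher and 4 lower. With this scaling 7394 of the 20881 tested genes were called higher and 7190 lower for K4A, and 7287 and 7155 for sdg2. Without it, 42.5% of all tested genes were called higher and 26.1% lower for K4A. For sdg2 the shares were 52.4% and 20.7%. TGG1, a myrosinase, rose from 917.3 ± 102 TPM in HTR5 to 2013 ± 104 TPM in K4A, and from 1078 ± 52.2 TPM in Col to 1624 ± 20.8 TPM in sdg2 (SD, n = 3), and GTR2, a glucosinolate importer, rose by 0.76 and 1.31 (log2). The TGG1 rise in sdg2 was 0.59 (log2), but 0.25 under median-of-ratios scaling and larger under quantile normalization. TGG2, a second myrosinase, was called higher at 0.27 and 0.20. Under median-of-ratios scaling TGG2 was called in neither, at 0.12 and -0.14 (limma adjusted p of 0.202 and 0.133). Quantile normalization gave 0.63 and 0.78. NSP1, a nitrile specifier, stood at 0.11 (not called, and -0.04 under median-of-ratios scaling) and was called lower in sdg2 at -0.76. GTR1, a further importer, was called higher in K4A at 0.55 and stood at 0.14 in sdg2 (not called, but called lower at -0.20 under median-of-ratios scaling). ESM1, which favours isothiocyanates among the breakdown products, fell from 437.1 ± 15.8 TPM in HTR5 to 102.4 ± 3.81 TPM in K4A, and from 565.8 ± 14.7 TPM in Col to 483.6 ± 4.68 TPM in sdg2. Its difference of effects was -1.86 with a limma adjusted p of 1.05e-10. ESP, which favours nitriles, was called lower in both, at -1.15 and -0.51. Of the MYC partners, MYC3 rose by 0.79 and 1.02 (log2), MYC4 stood at -0.075 (not called, but called lower at -0.23 under median-of-ratios scaling) and -0.69 (called lower), and MYC2 was listed at 0 in every library. The MYC2 span overlaps a measured gene on the opposite strand, so its 0 need not mean that it was not expressed. SDI1, a repressor of MYB28 known from sulfur deficiency, was called lower in both, at -1.71 and -1.02, and SLIM1, a regulator of the sulfur response, was called in neither, at 0.23 and 0.16, with the sign for sdg2 turned under median-of-ratios scaling (-0.16).

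Other measures moved with the fall of the synthesis genes. The summed TPM of the 7 green leaf markers was 41902 to 60759 in Col and HTR5 libraries (at least 55656 without HTR5 replicate 2), 31399 to 33427 in K4A and 25847 to 28776 in sdg2. Of these markers 6 were called lower in K4A than in HTR5 and 7 in sdg2 than in Col, with medians of -0.99 and -1.25. Median-of-ratios scaling also called 6 and 7 lower, with medians of -1.15 and -1.59. Quantile normalization left 2 and 3 called lower and 1 called higher in each, with medians of -0.11 and 0. That method matches libraries rank by rank, so it cannot show a fall of a top gene that keeps its rank. Under it RBCS1A and LHCB1.3 stood at exactly 0 in both comparisons. Without scaling or normalization, 26.1% and 20.7% of all tested genes were called lower. In these bulk samples fewer cells of a type and less RNA per cell cannot be told apart. The summed TPM of 7 evening clock genes was 36.1 to 47.7 in Col and HTR5 libraries, 299.0 to 316.5 in K4A and 537.3 to 563.9 in sdg2, and that of 7 morning clock genes 776.9 to 1063 in the Col and HTR5 libraries, 654.2 to 675.9 in those of K4A and 335.9 to 362.2 in those of sdg2. Root markers summed to 23.6 to 33.2 TPM in Col and HTR5 libraries, 32.8 to 35.2 in K4A and 13.1 to 14.1 in sdg2, with PYK10 the main part. Of the 2 root markers that were tested, NRT2.1 was called higher in K4A than in HTR5, at means of 6.82 and 0.299 TPM. PYK10 was not called there, at 25.7 and 25.1 TPM. In sdg2 against Col both were called lower, at -0.38 for NRT2.1 and -1.22 for PYK10 (log2). The part of these measures in the result was not tested. Without HTR5 replicate 2, the library that stood apart, all 9 aliphatic genes were still called lower in K4A against HTR5, from -4.26 for MAM3 to -0.49 for CYP79F2.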

How the data were processed

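RNA sequencing was compared in 12 libraries of Arabidopsis seedlings, 4 groups of 3, and titles of the samples gave group and replicate. The values deposited by the authors are TPM for 27655 genes in 12 columns that each sum to 1000000, also the 1 sdg2 column that is headed as counts. Per the submitters' processing notes, fastp 0.20.1, HISAT2 and DESeq2 1.26.0 were used with the build TAIR10; the counting tool and the use of strand are not given in the sources used here. How reads common to similar or overlapping genes were treated is therefore unknown.

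TPM times the gene span of the RefSeq TAIR10.1 annotation came out as whole reads, within 0.02 of a read, for 99.98% of 275437 non-zero values, which gives the depth of each library and shows that TPM was taken per whole span. Of the genes, 210 matched no locus tag and have no recovered reads. The precision of a value rests on these depths, and intervals are from the fit.

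The log2(TPM + 1) values of 20881 genes, those reaching a TPM of 1 in 3 or more libraries, entered limma 3.58.1 (R 4.3.3), in a single fit of the 12 libraries with group means and eBayes with a trend. Benjamini-Hochberg adjustment ran over all tested genes, and calls needed an adjusted p under 0.05. Fold changes on this scale understate the change of low genes. A count model was not the main test, as the unit is TPM.

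The fit was tested on simulated data: in K4A against HTR5, run on 20298 genes, 102 of 102 genes changed 4-fold and 82 of 93 changed 2-fold were recovered, and 4 of 20103 unchanged genes were called. For the difference of effects, on 20303 genes, 101 of 102 and 70 of 92 were recovered and 15 of 20109 unchanged genes called, and in HTR5 against Col 19 of 20116 were. Each simulation set 200 genes to change in a single group, whereas 68.6% of tested genes were called in the real K4A against HTR5. The rate of false calls where so many genes change is therefore not given by it. The real libraries are also less even than the simulated ones.

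The members and lists were chosen with earlier results of these data known. All members were to be named, any listed gene could be, and the 5 unlisted genes of the most similar profile were named. Alternatives were pseudocounts of 0.1 and 0.5, no filter, a mean TPM of at least 5, median-of-ratios scaling, quantile normalization, a fit of only the groups compared, a block for the replicate number, no variance trend, limma-voom on recovered reads, a minimum log2 change of 1, K4A against Col, and each library left out. Promoters and coding sequences were read from TAIR10.1 with Python 3.11.15, and coding sequences aligned with Biopython 1.88.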

Additional observations from a re-analysis of the deposited data

Results flagged for a closer look

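The effects of the 2 mutants, each against its own control, differed for 6 of the 9 aliphatic genes when the difference was itself tested (limma, K4A against HTR5 minus sdg2 against Col, log2). MAM3 had a difference of -2.59 with an adjusted p of 6.92e-08, and MYB28 of -0.62 with 0.000824. CYP79F1 had -0.28 with 0.028. Its call was lost under median-of-ratios scaling (limma adjusted p of 0.334), with limma-voom (0.327) and without the variance trend (0.0685). The differences were 0.97 for MYB29 (2.61e-05), 1.08 for CYP79F2 (0.000171) and 0.39 for FMOGS-OX1 (0.0112). All 9 genes were lower in each mutant than in its own control, so these values are differences in the depth of a fall. Of all tested genes 40.7% had a called difference.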

How the results depend on the processing

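Both in sdg2 (over Col) and in K4A (over HTR5) the 9 genes were called lower under each alternative run, except that a minimum log2 change of 1 dropped CYP79F2 from the calls in K4A. Over 45 values of single genes, 985 alternatives kept side and direction, 31 lost the call, 8 gained it and 11 changed sign. Every sign change was of a value not called: FMOGS-OX1 in HTR5 against Col stood at -0.093 with median-of-ratios scaling, -0.051 after quantile normalization, -0.095 with limma-voom, and -0.051 to 0.035 with a library left out. For the difference of effects BCAT4 stood at -0.019 to 0.09 with a library left out, MAM1 at 0.117 with median-of-ratios scaling and 0.118 with limma-voom, and CYP83A1 at -0.071 under quantile normalization.

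In HTR5 against Col, genes called lower numbered 4 of 9 under median-of-ratios scaling and with limma-voom, 1 in a fit of the compared groups alone and without the variance trend, and 0 with a minimum log2 change of 1. They numbered 1 to 3 with a library left out, and all genes called 1173 to 2669, the lowest without Col replicate 2 (1173) and Col replicate 3 (1182), against 1938. The compared groups alone gave 688 calls. In K4A against sdg2, 3 genes were called lower under median-of-ratios scaling and with limma-voom, and a minimum log2 change of 1 left 1 higher and 1 lower. For the difference of effects limma-voom called 5 genes higher, and the minimum change left 1 in each direction. That minimum also cut all genes called to 4599, 4508, 296, 2167 and 2312 in the order K4A against HTR5, sdg2 against Col, HTR5 against Col, K4A against sdg2 and the difference of effects. The causes were not tested, apart from the alternatives' own construction. Median-of-ratios scaling moved the median of all genes from 0.14 to 0.002 and from 0.31 to 0.008 in the main 2 comparisons, and called higher genes from 8868 to 7394 and from 10951 to 7287 there.

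With the replicate number as a block, 9 of 9 genes were lower for each mutant over its control, and the block changed no count of calls among the 9 genes in any comparison. Over all genes it gave 14070, 15126, 1667, 10135 and 7986 calls in the order above. The samples share only a number: deviations of same-numbered libraries correlated at -0.136 to 0.07 over 18 pairs. Depth limits MAM3 in K4A, which rests on 6 to 16 reads per library.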
